A study of Homo sapiens with 24 samples.

Results

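The transcripts of 50 genes of DNA replication and of the G1/S transition were examined in U251 cells, an established human glioblastoma line, exposed to G-1, a nonsteroidal agonist of the G protein-coupled estrogen receptor GPER. A gene was a member if a probe of the array carried a RefSeq transcript of its symbol. All 50 listed symbols had such a probe and all 50 passed the filter on dim probes, out of 14235 genes with a symbol that were tested, and 49 of them were well above background on all 24 arrays. The exception was ASF1A. The data were 24 one-colour Agilent arrays in 6 groups of 4: the solvent DMSO (0.1% by the sample labels), G-1 at its IC50 and G-1 at 1 µM, each for 24 h and for 72 h, in cells kept beforehand for 24 h in medium with charcoal-stripped serum to remove steroid hormones. The replicates were described as independent biological replicates of 1 cell line. Levels are given in log2 units relative to the 75th percentile of the same array, so that a difference of 1 is a 2-fold difference, and a level is never compared between genes because each probe has its own brightness.

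DNA replication starts with the loading of the MCM2-7 helicase onto origins in G1 by ORC, CDC6 and CDT1. It goes on in S phase with the activation of that helicase by CDC45, GINS and the CDC7-DBF4 kinase, after which primase, the replicative polymerases, the clamp PCNA and its loader RFC copy the strands while RPA covers single-stranded DNA. Many of these genes are known targets of E2F transcription factors, which RB holds in check in G1 until cyclin-dependent kinases phosphorylate RB. RNA of such genes is commonly read as a mark of proliferating cultures, but in RNA from whole cultures a larger share of cells in S phase and more RNA per cell cannot be told apart.

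Facts of the arrays come before the results. The share of probes well above background was 38.0% to 40.7% on the 1 µM arrays and 41.1% to 44.5% on the DMSO and IC50 arrays. The median local background was 48 to 58 on the 1 µM arrays and 44 to 48 on the others. Replicates of a group correlated at r = 0.990 to 0.996 over probes. All 8 arrays of 1 µM G-1 lay on the third of 3 slides, scanned in the second of 2 sessions, and no DMSO or IC50 array did. The 1 µM dose and the slide or session thus cannot be told apart when 1 µM is compared with DMSO or IC50. The change from 24 h to 72 h under 1 µM lies within the third slide. DMSO and IC50 arrays were spread unevenly over the other slides, with DMSO at 24 h mostly on slide 1 and IC50 at 72 h mostly on slide 2. Comparisons among these groups are thus partly mixed with slide. The 8 astroglial and glioma markers examined (VIM, NES, CD44, S100B, GFAP, SOX2, SLC1A3, FABP7) stood well above background throughout the arrays. Of 10 markers of other cell types, 9 had a probe. PTPRC, PECAM1, EPCAM and ALB were above background on no array, while the neural genes MBP, RBFOX3 and SYT1 were on all 24, MOG on 17 and CDH5 on 16.

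Promoters are shown because most of the members moved in 1 direction at 72 h. RefSeq windows (GRCh38.p14) of the 250 bases before the transcription start were searched on both strands for the E2F-type words TTTCCCGC, TTTGGCGC, TTTCGCGC and TTTGCCGC, and a gene was counted once whatever the number or overlap of its matches. At least 1 of the words stood in the window of 17 of the 44 members that had one (38.6%), against 928 of 27305 genes (3.4%). By response, it stood in 12 of the 36 members that were higher under 1 µM at 72 h and in 5 of the 8 that did not pass the test there. The cell cycle word TTTGAA was in 2 of the 44 windows (4.55%), against 16.1% of all genes, and CCAAT, the core word bound by NF-Y, was in 25 (56.8%), against 37.0%. The shares over all genes cover every gene with a window, not only the 14235 tested here. All members were tested, so the sets compared are unlike. A match is a description of letters, and no binding was measured here. The windows of MCM4, MCM5, GINS4, RPA2, RPA3 and CCNE2 were not analysed here.

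Below are the windows of RFC3, GINS2, MCM3 and CDC7, which span large to small 72 h responses and hold an E2F-type word, and of ORC6 and RRM2, which are among the members with the largest responses and hold none. They run 5′ to 3′ on the strand of the gene and end at the base before the start, with E2F-type words in capitals, read as GCGGGAAA where the word is on the other strand.
RFC3 at chr13:33817899-33818148, plus strand: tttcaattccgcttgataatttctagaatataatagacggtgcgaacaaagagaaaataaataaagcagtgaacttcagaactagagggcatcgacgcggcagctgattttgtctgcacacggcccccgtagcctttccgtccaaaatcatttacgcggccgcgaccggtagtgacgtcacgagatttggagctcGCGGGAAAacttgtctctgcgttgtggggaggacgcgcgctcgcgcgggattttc
GINS2 at chr16:85688955-85689204, minus strand: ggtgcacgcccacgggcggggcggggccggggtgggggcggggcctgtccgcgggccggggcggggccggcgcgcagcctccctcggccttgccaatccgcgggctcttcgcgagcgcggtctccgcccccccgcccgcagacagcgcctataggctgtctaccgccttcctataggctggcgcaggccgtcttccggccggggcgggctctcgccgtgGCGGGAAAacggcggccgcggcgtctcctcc
MCM3 at chr6:52284743-52284992, minus strand: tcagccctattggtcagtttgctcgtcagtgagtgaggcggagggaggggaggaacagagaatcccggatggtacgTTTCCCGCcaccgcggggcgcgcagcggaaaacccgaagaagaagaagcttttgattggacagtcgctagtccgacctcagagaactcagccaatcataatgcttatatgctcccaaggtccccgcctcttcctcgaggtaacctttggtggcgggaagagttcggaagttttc
CDC7 at chr1:91500862-91501111, plus strand: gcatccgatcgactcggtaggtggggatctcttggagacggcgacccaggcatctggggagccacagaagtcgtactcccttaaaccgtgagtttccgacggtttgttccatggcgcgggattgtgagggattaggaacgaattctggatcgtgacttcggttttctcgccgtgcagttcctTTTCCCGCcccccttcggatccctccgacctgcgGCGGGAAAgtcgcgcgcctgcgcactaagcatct
ORC6 at chr16:46689409-46689658, plus strand: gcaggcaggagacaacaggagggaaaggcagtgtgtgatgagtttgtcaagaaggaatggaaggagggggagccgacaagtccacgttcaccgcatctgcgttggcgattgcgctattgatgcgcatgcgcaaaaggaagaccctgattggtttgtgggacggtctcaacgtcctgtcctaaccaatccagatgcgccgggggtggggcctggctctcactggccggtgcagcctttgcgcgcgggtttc
RRM2 at chr2:10122489-10122738, plus strand: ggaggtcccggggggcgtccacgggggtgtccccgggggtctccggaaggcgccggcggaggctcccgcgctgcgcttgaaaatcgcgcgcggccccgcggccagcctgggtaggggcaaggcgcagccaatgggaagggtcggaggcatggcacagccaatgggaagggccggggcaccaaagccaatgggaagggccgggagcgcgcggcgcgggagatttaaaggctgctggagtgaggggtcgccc
The matched word was TTTCCCGC in all 4 genes, and CDC7 held it 2 times. It began 55 bases before the start in RFC3, 31 in GINS2 and 174 in MCM3, and the CDC7 match farthest upstream began 68 bases before the start.

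At 72 h, 1 µM G-1 went with higher RNA of most of the replication set. The study set each dose of G-1 against its solvent at each duration. Against DMSO, 41 of the 50 members were higher and 0 lower by limma at an adjusted p under 0.05, and the same number, 41, had an unadjusted p under 0.05 (69.1% of all genes). Over all genes tested, 66.1% passed the test in either direction, 35.2% were higher and 31% lower. The median log2 change of the members was 0.53 (1.44-fold), against 0.03 for all genes. The sizes were modest: at the brightest probe, 2 members, ORC6 and RFC3, were higher by more than 2-fold, which 4.92% of all genes were. For 35 members every 1 µM array was above every DMSO array, as it was for 31.2% of all genes. The 6 called members whose arrays overlapped were MCM3, MCM5, CDC7, POLA1, TYMS and CHAF1B. Without the first DMSO array the count was 34, and the calls of MCM3, MCM5, CDC7, POLA1, CHAF1B and RPA3 were among those lost. The 8 members with the largest changes, ORC6, RFC3, RRM2, POLE2, RFC2, RFC4, MCM10 and ORC1, stayed past the threshold of the adjusted p when any 1 array was left out.

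**Figure D1:**
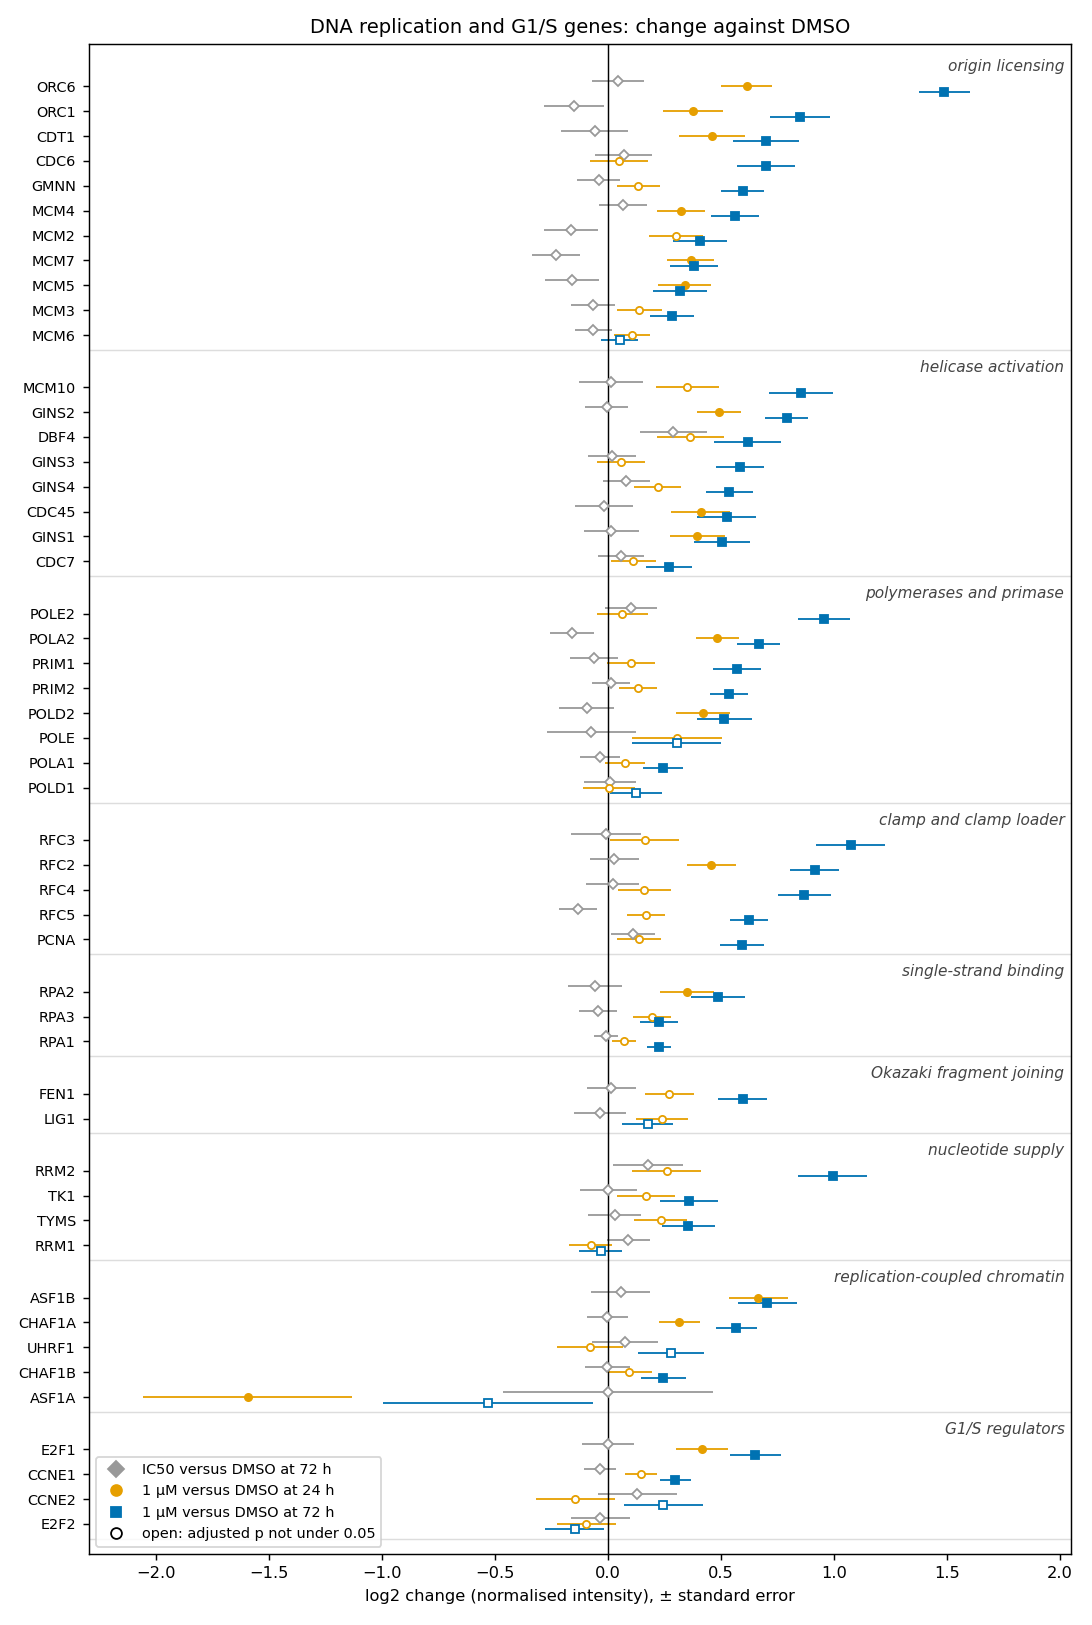
Log2 change ± standard error (x axis) of each of the 50 genes (rows, grouped by role) for IC50 against DMSO at 72 h (grey diamonds), 1 µM against DMSO at 24 h (orange circles) and 1 µM against DMSO at 72 h (blue squares), with filled symbols for an adjusted p under 0.05. At 72 h, 41 squares are filled and all of them lie right of 0, whereas no diamond is filled.

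Among the licensing genes, which load the helicase in G1, 10 of 11 rose at 72 h, and MCM6 did not pass the test. The counts by role, here and below, stand beside 35.2% of all genes higher in this comparison. ORC6, a subunit of the origin recognition complex, had the largest change. On the 4 DMSO arrays at 72 h its level was 2.86, 3.02, 3.23 and 3.11, and on the 4 arrays of 1 µM it was 4.64, 4.35, 4.58 and 4.61. The groups lay more than 1 log2 unit apart at their nearest arrays, for a log2 change of 1.49 ± 0.11 (SE, 2.81-fold, adjusted p = 8.7e-10). ORC1, the largest subunit of that complex, was at -0.05, -0.10, 0.19 and -0.04 under DMSO and at 0.54, 0.92, 1.03 and 0.91 under 1 µM, with no overlap and a log2 change of 0.85 ± 0.13 (adjusted p = 1.3e-05). The loaders CDC6 and CDT1 were each higher by 0.70, and geminin (GMNN), the inhibitor of CDT1, by 0.60.

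The 6 subunits of the MCM2-7 ring, which act as 1 complex, differed among themselves. Their log2 changes at 72 h were 0.56 for MCM4, 0.41 for MCM2, 0.38 for MCM7, 0.32 for MCM5, 0.28 for MCM3 and 0.05 for MCM6, of which the first 5 passed the test. Second probes of MCM5 and MCM7 gave 0.23 (adjusted p = 0.16) and 0.36 (adjusted p = 0.096) and did not pass it. MCM3 was at 6.28, 6.28, 6.60 and 6.45 under DMSO and at 6.74, 6.57, 6.70 and 6.73 under 1 µM. MCM5 was at 4.33, 4.37, 4.76 and 4.46 under DMSO and at 4.59, 4.96, 4.88 and 4.75 under 1 µM. In both genes the third DMSO array lay inside the range of 1 µM. MCM6 was at 5.11, 5.20, 5.33 and 5.21 under DMSO and at 5.37, 5.15, 5.20 and 5.33 under 1 µM, overlapping groups whose difference had a 95% confidence interval of -0.12 to 0.22 (adjusted p = 0.59). Differences between the subunits were not tested.

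All 8 genes of helicase activation were higher at 72 h. MCM10, which helps to start unwinding, was at 0.19, 0.14, 0.52 and 0.32 under DMSO and at 1.25, 0.89, 1.17 and 1.27 under 1 µM, a log2 change of 0.85 ± 0.14 (adjusted p = 2.4e-05). GINS2, a subunit of the GINS complex, was at 3.98, 4.11, 4.29 and 4.09 under DMSO and at 4.84, 4.88, 4.99 and 4.91 under 1 µM, and no arrays overlapped. Its change was 0.79 ± 0.10 (adjusted p = 5.5e-07). The other GINS subunits changed by 0.50 (GINS1), 0.58 (GINS3) and 0.54 (GINS4), close to CDC45 at 0.52. Of the kinase that fires origins, the regulatory subunit DBF4 was higher by 0.62 and the catalytic subunit CDC7 by 0.27. A second, dimmer probe of DBF4, well above background on 16 of 24 arrays, gave 0.58 and did not pass the test (adjusted p = 0.22). CDC7 was at 1.11, 1.35, 1.49 and 1.40 under DMSO and at 1.79, 1.39, 1.59 and 1.67 under 1 µM, so that the second 1 µM array lay inside the DMSO range.

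Of the 8 polymerase and primase genes, 6 rose at 72 h, and POLD1 and POLE, the catalytic subunits of polymerases delta and epsilon, did not pass the test. POLE2, the second subunit of polymerase epsilon, was at -0.12, 0.05, -0.05 and 0.10 under DMSO and at 1.05, 0.82, 0.96 and 0.96 under 1 µM. Its log2 change was 0.96 ± 0.11 (1.94-fold, adjusted p = 3.9e-07). POLA2, the regulatory subunit of polymerase alpha, was higher by 0.67, the primase subunits PRIM1 and PRIM2 by 0.57 and 0.53, and POLD2 by 0.51. Further probes of PRIM2 gave 1.16 (adjusted p = 3.8e-08), which is above 2-fold, and 0.79 (adjusted p = 0.0049). At 24 h these gave 0.57 (adjusted p = 0.0014) and -0.12 (adjusted p = 0.73), and the brightest probe 0.13 (adjusted p = 0.25). The size for PRIM2 thus depends on the probe. For POLA1, the catalytic subunit of polymerase alpha, levels of 3.75, 3.87, 4.01 and 3.95 under DMSO stood against 4.18, 3.95, 4.18 and 4.24 under 1 µM, a change of 0.24 ± 0.09 (adjusted p = 0.021). POLD1 had a log2 change of 0.12 and POLE of 0.30, with adjusted p of 0.36 and 0.19 and 95% confidence intervals of -0.12 to 0.36 and -0.11 to 0.72.

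All 5 genes of the clamp and its loader were higher, with a median log2 change of 0.87, the highest of the 9 roles. RFC3 was at 0.93, 0.94, 1.12 and 1.12 under DMSO and at 2.46, 1.72, 1.96 and 2.27 under 1 µM, a change of 1.07 ± 0.15 (2.10-fold, adjusted p = 4.5e-06). RFC2 was at 3.29, 3.41, 3.53 and 3.31 under DMSO and at 4.18, 4.37, 4.50 and 4.16 under 1 µM, a change of 0.92 ± 0.11. RFC4 was at 5.07, 5.24, 5.43 and 5.39 under DMSO and at 6.21, 6.02, 6.19 and 6.19 under 1 µM, a change of 0.87 ± 0.12. None of the 3 loader subunits had overlapping groups. RFC5 was higher by 0.62 and PCNA by 0.59. A second probe of RFC3 gave 1.17 and a second probe of PCNA 0.57.

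The 3 subunits of RPA, the single-strand binding complex, were all called and had small changes. RPA1 was at 6.09, 6.16, 6.19 and 6.15 under DMSO and at 6.44, 6.26, 6.45 and 6.35 under 1 µM, a log2 change of 0.22 ± 0.05 (adjusted p = 0.00099). RPA3 was at 6.45, 6.52, 6.55 and 6.47 under DMSO and at 6.73, 6.70, 6.70 and 6.75 under 1 µM, a change of 0.23 ± 0.08. The groups of both genes were separate although the changes were among the smallest called. RPA2 was higher by 0.49. Of the 2 genes that join Okazaki fragments, the flap endonuclease FEN1 was higher by 0.60, and the ligase LIG1, at 0.17, did not pass the test (adjusted p = 0.19).

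The nucleotide supply genes separated the subunits of ribonucleotide reductase, the enzyme that makes deoxyribonucleotides. RRM2, its small subunit, was at 2.94, 3.09, 3.23 and 3.06 under DMSO and at 4.07, 3.77, 4.33 and 4.12 under 1 µM, a log2 change of 0.99 ± 0.15 (1.99-fold, adjusted p = 1.2e-05). RRM1, its large subunit, was at 5.21, 5.06, 5.37 and 5.16 under DMSO and at 5.25, 4.99, 5.20 and 5.23 under 1 µM. The RRM1 groups overlapped, and the change of -0.03 had a 95% confidence interval of -0.23 to 0.17. Thymidylate synthase (TYMS) and thymidine kinase (TK1) were each higher by 0.36.

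Of the 5 genes of replication-coupled chromatin, 3 rose at 72 h, beside 35.2% of all genes. The histone chaperone ASF1B was at 4.01, 3.97, 4.37 and 4.07 under DMSO and at 4.67, 4.86, 4.89 and 4.83 under 1 µM, a log2 change of 0.70 ± 0.13 (adjusted p = 9.5e-05). The subunits of the chromatin assembly factor changed by 0.57 (CHAF1A) and 0.24 (CHAF1B). CHAF1B was at 4.08, 4.21, 4.35 and 4.34 under DMSO and at 4.52, 4.35, 4.52 and 4.57 under 1 µM, with the second 1 µM array at the top of the DMSO range. UHRF1, which guides maintenance methylation, gave 0.28 at its brightest probe (adjusted p = 0.10) and 0.77 at its second probe (adjusted p = 3.6e-05). ASF1A, the paralogue of ASF1B, was dim and is described with the 24 h data.

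Among the 4 G1/S regulators, 2 rose, beside 35.2% of all genes. CCNE1, a cyclin that activates CDK2 at the end of G1, was at 3.75, 3.68, 3.95 and 3.85 under DMSO and at 4.14, 4.03, 4.09 and 4.16 under 1 µM, a log2 change of 0.30 ± 0.07 (adjusted p = 0.00080). E2F1 was higher by 0.65. Its relative E2F2 was at -0.15 in log2 change and did not pass the test (95% confidence interval -0.42 to 0.12). CCNE2, the other E cyclin, gave 0.24 at its brightest probe (adjusted p = 0.23) and 0.76 at its second (adjusted p = 0.0025). In all, 11 members had a further tested probe. Of those 12 probes, 8 were higher at 72 h and 0 lower, and that of RPA1 gave -0.18 (adjusted p = 0.25), opposite in sign to the brightest probe. The second probes of MCM5, MCM7 and DBF4 also did not pass the test, although their brightest probes did.

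**Figure D2:**
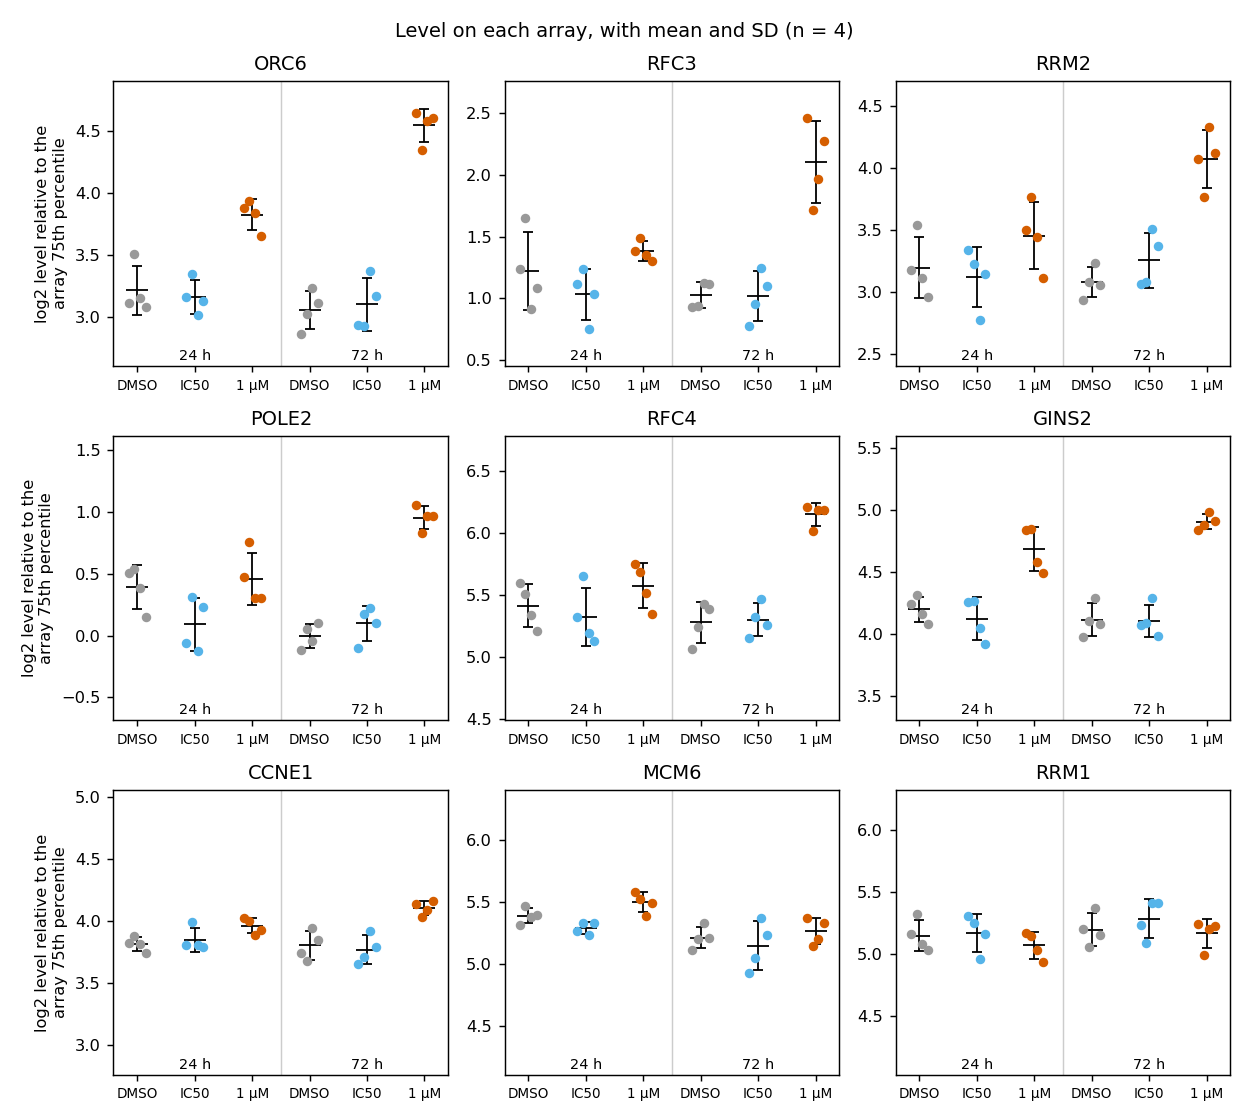
Level on each array (points, log2 relative to the 75th percentile of the array) of 9 genes in the 6 groups, with the mean and SD of 4 arrays. Every panel spans the same number of log2 units. The 4 arrays of 1 µM at 72 h lie above all DMSO and IC50 arrays of that duration in ORC6, RFC3, RRM2, POLE2, RFC4, GINS2 and CCNE1, and overlap them in MCM6 and RRM1.

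At 24 h the response to 1 µM was smaller. Against DMSO, 16 members were higher and 1 was lower (ASF1A, whose limit is described below), beside 20% and 10.5% of all genes. The share of members called, 34%, stood beside 30.6% of all genes. With the replicate numbers as a block within each duration, a pairing that the check described below does not establish, 25 members were called, beside 37.2% of all genes. The median log2 change was 0.21 (1.16-fold), against 0.04 over all genes, and 45 of the 50 changes were above 0, as were 55% of all genes. The 16 were ORC1, ORC6, CDT1, MCM4, MCM5, MCM7, CDC45, GINS1, GINS2, POLA2, POLD2, RFC2, RPA2, CHAF1A, ASF1B and E2F1. All 16 (100%) were also higher at 72 h, where they made up 39.0% of the 41. At 72 h 35.2% of all genes were higher. The same overlap was not counted over all genes, so it is not read as particular to the members. The count at 24 h was unstable: it was 6 when arrays were scaled on their 50th percentile, where the share over all genes fell to 15.2%, and 8, 10 and 11 without the first and the second 1 µM arrays and the fourth DMSO array, respectively.

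The largest rises at 24 h were in ASF1B, ORC6 and GINS2. ASF1B was at 4.02, 4.01, 3.82 and 3.74 under DMSO and at 4.74, 4.70, 4.45 and 4.37 under 1 µM, a log2 change of 0.66 ± 0.13 (adjusted p = 0.0010). ORC6 was at 3.11, 3.50, 3.15 and 3.08 under DMSO and at 3.88, 3.93, 3.83 and 3.65 under 1 µM, a change of 0.61 ± 0.11 (adjusted p = 0.00067). GINS2 was at 4.24, 4.31, 4.16 and 4.08 under DMSO and at 4.84, 4.85, 4.59 and 4.49 under 1 µM, a change of 0.49 ± 0.10 (adjusted p = 0.0010). In these 3 genes all 1 µM arrays lay above all DMSO arrays.

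ASF1A, a histone chaperone, was the member counted as lower at 24 h. It entered the test only through DMSO at 24 h, the 1 group in which all 4 arrays were well above background, so its difference is a description and its call supports nothing. It was at -2.60, -1.74, -2.65 and -2.74 under DMSO, well above background on 4 of 4 arrays, and at -4.16, -3.81, -3.37 and -4.76 under 1 µM, well above background on 0 of 4. The 1 µM level is only a bound. Taking on each array the higher of the probe's own signal and the lowest signal well above background, ASF1A was at least 1.22-fold lower. Against IC50, in which 3 of 4 arrays were well above background, it was at least 1.28-fold lower, also as a description. At 72 h it was well above background on 3 of 4 DMSO arrays and 1 of 4 arrays of 1 µM, with a measured log2 change of -0.53.

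The difference between durations was tested directly, as the change under 1 µM at 72 h less the change at 24 h, each against its own DMSO group. It was positive and past the threshold for 13 members and negative for 0, with 16.4% of all genes higher and 17.7% lower, and its median was 0.24, against 0.00 over all genes. The largest were RFC3 at 0.91 ± 0.22 (SE, adjusted p = 0.0033), POLE2 at 0.89 ± 0.16 (adjusted p = 0.00030), ORC6 at 0.88 ± 0.16 (adjusted p = 0.00036) and RRM2 at 0.74 ± 0.22 (adjusted p = 0.014). The others were RFC4 (0.71), CDC6 (0.65), GINS3 (0.53), PRIM1 (0.47), and GMNN, PCNA, RFC2 and RFC5 (0.46 each) and PRIM2 (0.40), so that all 5 clamp and loader genes were among the 13. The call of RFC2 was lost without any of 7 arrays (DMSO 2 and 3 and 1 µM 3 and 4 at 24 h, DMSO 1 and 4 and 1 µM 3 at 72 h), and that of RRM2 on the 50th percentile scale. RFC3, POLE2 and RRM2 had not been called at 24 h, when their changes were 0.16, 0.06 and 0.26. The DMSO groups entered these differences too: from 24 h to 72 h the log2 change in DMSO was -0.40 for POLE2 (adjusted p = 0.061), beside 0.49 under 1 µM, and -0.19 for RFC3, -0.16 for ORC6 and -0.12 for RRM2.

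At 24 h, RFC3 was at 1.24, 1.65, 0.91 and 1.08 under DMSO and at 1.38, 1.49, 1.35 and 1.31 under 1 µM. POLE2 was at 0.51, 0.54, 0.39 and 0.15 under DMSO and at 0.47, 0.75, 0.31 and 0.30 under 1 µM. RRM2 was at 3.18, 3.54, 3.12 and 2.96 under DMSO and at 3.50, 3.77, 3.45 and 3.12 under 1 µM. In all 3 genes the groups overlapped at 24 h and were separate at 72 h. ORC6, by contrast, was separate at both durations. All of these genes were named for the size of their difference between durations on these same arrays, so the patterns are only descriptions.

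Within the slide that held all 1 µM arrays, 14 members were higher at 72 h than at 24 h and 1 was lower, beside 18.9% and 24.3% of all genes. The median log2 change was 0.18, against -0.01 over all genes. ORC6 and RFC3 were each higher by 0.72, RRM2 by 0.62, RFC4 by 0.58, CDC6 by 0.55 and POLE2 by 0.49. MCM6 was the member that was lower: it was at 5.58, 5.53, 5.39 and 5.50 at 24 h and at 5.37, 5.15, 5.20 and 5.33 at 72 h, a change of -0.23 ± 0.08 (adjusted p = 0.026). The MCM6 call was lost without any 1 of arrays 1, 2 or 4 at 24 h or arrays 2 or 3 at 72 h. The count of 15 became 9 without either the fourth 24 h or the fourth 72 h array of 1 µM. It became 7 on the 50th percentile scale, where 31.3% of all genes were called.

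In DMSO alone, 1 member differed between the durations, beside 3.34% of all genes. PCNA was at 5.79, 6.08, 5.81 and 5.71 at 24 h and at 5.38, 5.46, 5.61 and 5.44 at 72 h, a log2 change of -0.38. It lost the call in 6 of the 8 fits that left out 1 array, those without array 1, 2 or 3 at 24 h and without array 1, 2 or 4 at 72 h. Under 1 µM, PCNA was at 5.97, 6.17, 5.96 and 5.84 at 24 h and at 6.22, 5.81, 6.06 and 6.16 at 72 h, and its difference between durations of 0.46 was made up of changes of 0.08 under 1 µM and -0.38 under DMSO.

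G-1 at its IC50 gave no member past the threshold at either duration by limma, where 0.246% of all genes passed at 24 h and 0.906% at 72 h. At an unadjusted p under 0.05, limma had 2 members at 24 h and 1 at 72 h (4.64% and 9.62% of all genes), and the methods' t-test had 2 at each. Those of limma were POLE2 (-0.30) and MCM10 (-0.30) at 24 h and MCM7 (-0.23) at 72 h. The log2 changes ranged from -0.30 to 0.14 at 24 h and from -0.23 to 0.29 at 72 h, with medians of -0.05 and -0.00, whose signs changed when single arrays were left out (-0.11 to 0.01 and -0.08 to 0.06). For ORC6, the IC50 arrays at 72 h were at 2.93, 2.92, 3.37 and 3.17, and at 24 h at 3.16, 3.34, 3.01 and 3.13, within or near the DMSO ranges.

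The doses were also compared with each other. Against IC50, 1 µM was higher in 23 members and lower in 1 at 24 h (ASF1A, with the same limit as above), beside 18.2% and 8.32% of all genes, and higher in 39 and lower in 0 at 72 h, beside 35.9% and 29.3%. The medians were 0.28 and 0.53, against 0.05 over all genes at each duration. At 72 h, ORC6 was higher by 1.44, RFC3 by 1.08 and ORC1 by 1.00, and these were the 3 members above 2-fold, as were 4.52% of all genes. The comparisons with IC50 and with DMSO share the 1 µM arrays. At 24 h the count of 24 was 5 on the 50th percentile scale, where the share over all genes was 15.1%, and 10, 12 and 14 without the fourth IC50, the first 1 µM and the second 1 µM arrays, and 16 without the third IC50 array.

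**Figure D3:**
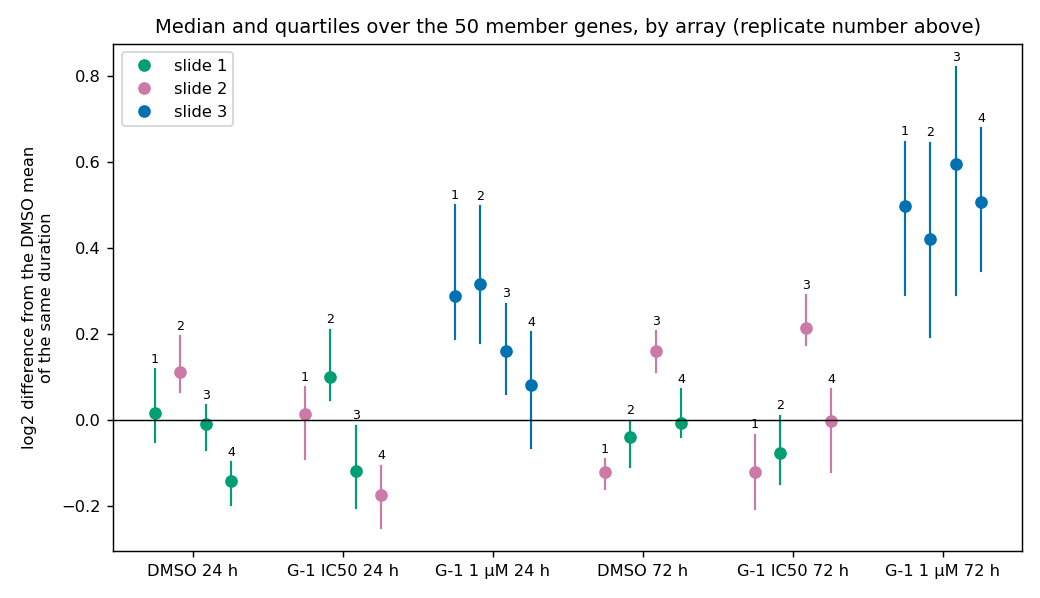
Median (points) and quartiles (lines) over the 50 genes of the difference of each array from the mean of the 4 DMSO arrays of its duration (y axis, log2), by group and replicate number, coloured by slide. The 72 h arrays of 1 µM sit from 0.42 to 0.60, those of 24 h from 0.08 to 0.32, and all of them are on slide 3.

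Summed up per array, the members' median difference from the DMSO mean was 0.50, 0.42, 0.60 and 0.51 on the 1 µM arrays at 72 h and 0.29, 0.32, 0.16 and 0.08 at 24 h. On the DMSO and IC50 arrays it ran from -0.17 to 0.21. The 72 h arrays of 1 µM were thus above all others, while those of 24 h overlapped the DMSO and IC50 arrays. DMSO and IC50 arrays moved as a set as well: 3 of the 50 members were above the DMSO mean on the fourth DMSO array at 24 h and 49 on the third DMSO array at 72 h. The third IC50 array at 72 h had the highest median among the arrays without 1 µM. The part of slide, culture or growth state in these shifts was not tested.

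Other genes of the pathway were set beside the members. Of 77 listed, 75 were tested (not CCND2 and CDKN2C), and at 72 h under 1 µM 50 were higher and 6 lower than in DMSO (35.2% and 31% of all genes), with a median log2 change of 0.52. At 24 h, 25 were higher and 2 lower, together 36% of those tested, beside 30.6% of all genes. By role, 11 of 14 other origin and helicase factors were higher at 72 h, 11 of 14 other polymerase, loader and nuclease genes (2 lower), 6 of 10 fork protection genes, 3 of 8 other nucleotide supply genes (1 lower), 1 of 4 other chromatin genes (1 lower) and 18 of 25 other G1/S regulators (2 lower).

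The largest rise was in CCND1, the D cyclin that starts RB phosphorylation. It was at 2.18, 2.36, 2.69 and 2.30 under DMSO at 72 h and at 3.80, 4.38, 4.34 and 3.90 under 1 µM, a log2 change of 1.72 ± 0.16 (adjusted p = 8.9e-09). E2F7, a repressor of the E2F family, was higher by 1.47 ± 0.15, the checkpoint kinase CHEK1 by 1.43 ± 0.09, the S and G2 cyclin CCNA2 by 1.28 ± 0.11, and CDC25A, the phosphatase that activates CDK2, by 1.23 ± 0.12. The CDK inhibitor CDKN1A was higher by 0.68 ± 0.17. These genes include activators and inhibitors of the transition.

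The genes that fell at 72 h included CDKN2A (-1.18 ± 0.20), CDKN1B (-0.76 ± 0.09), POLD4 (-0.35 ± 0.11), NASP (-0.32) and RNASEH2C (-0.18), of which NASP and RNASEH2C were named because the count was small. CDKN1B encodes a CDK inhibitor and POLD4 the smallest subunit of polymerase delta. The probe of CDKN2A was well above background on all 24 arrays, at 0.90, 1.03, 1.13 and 1.45 under DMSO at 72 h, although U251 is widely described as lacking that locus. What this probe measures was not tested.

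Mitotic genes, which act after S phase, were set beside the members. Of 20, 16 were higher and 1 lower at 72 h (35.2% and 31% of all genes), with a median log2 change of 0.78 (0.03 over all genes). At 24 h, 14 were higher and 0 lower (20% and 10.5% of all genes), with a median of 0.56 (0.04 over all genes). AURKA (1.60) and CDC20 (1.37), a mitotic kinase and an activator of the anaphase-promoting complex, had the largest changes at 72 h. CDK1, the mitotic kinase, was higher by 0.35, and NUSAP1, a spindle protein, lower by 0.30 on the log2 scale (-0.30). The test of the difference between durations called 2 of the 20 mitotic genes and 13 of the 50 members, beside 34.1% of all genes, which is above the share of either list. Over the lists, the 24 h median was thus 0.21 for the members and 0.56 for the mitotic genes, and the 72 h median 0.53 and 0.78, which are descriptions of the lists with no test between them.

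**Figure D4:**
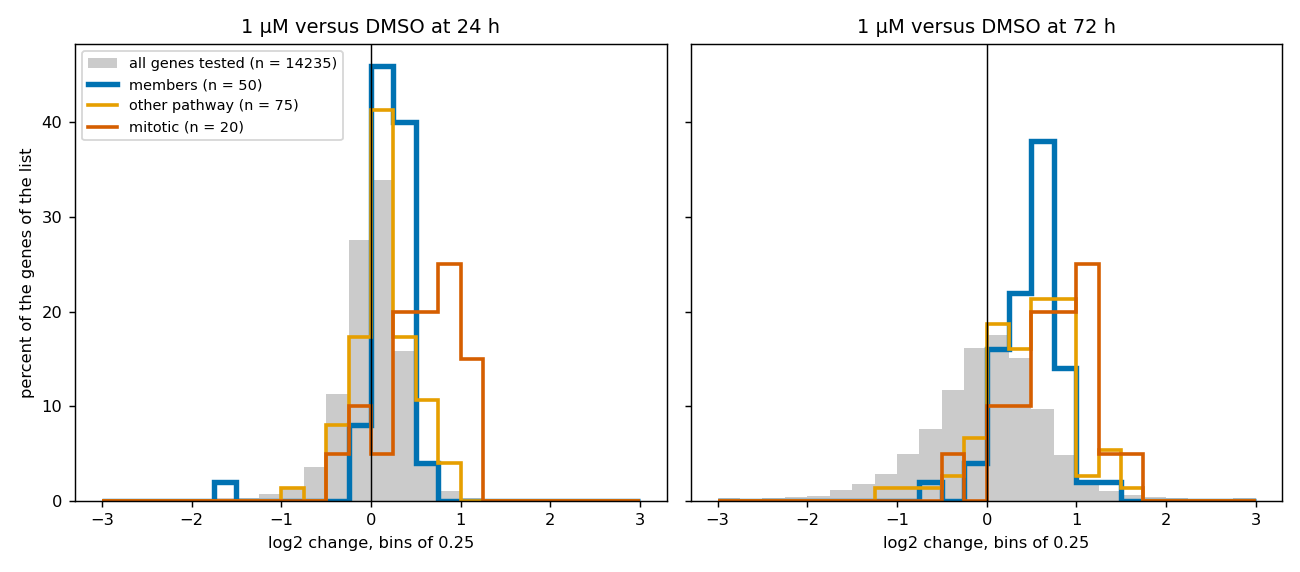
Percent of the genes of each list (y axis) per bin of 0.25 log2 units of the change of 1 µM against DMSO (x axis) at 24 h (left) and 72 h (right), for all 14235 genes tested (grey), the 50 members (blue), 75 other pathway genes (orange) and 20 mitotic genes (red), with values beyond 3 in the end bins. The members centre on 0.21 at 24 h and 0.53 at 72 h, where all genes centre on 0.04 and 0.03.

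Astroglial markers moved in the same 1 µM arrays: at 72 h GFAP was at -2.71, S100B at -1.96, SOX2 at -0.84, SLC1A3 at -0.59, CD44 at -0.39, NES at -0.32 and VIM at -0.25 in log2 change, and FABP7 at 0.79. All 8 passed the test at 72 h, which 66.1% of all genes passed. Of the markers of other cell types that were tested, RBFOX3 was at -1.58, MOG at -1.02 and MBP at -0.58, SYT1 was at 0.98, and these 4 passed the test, while CDH5 at -0.77 did not (adjusted p = 0.059). The markers of both lists thus moved in both directions, and their part in the changes of the replication genes was not tested.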

How the data were processed

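Cy3-labelled RNA of 24 U251 cultures was hybridised to Agilent 8-array slides. The authors extracted spot intensities with Agilent Feature Extraction (version 10.7.3.1 per the labels, 12.1.1.1 per the file headers), and these deposited intensity values, background-subtracted by that software, were the input here. A second deposited table held log2 values per probe and served as an alternative. It matched the values computed here, once those were centred on the median of each probe. The median difference was 0.00189 and the maximum 0.0106 log2 units. The medians of its columns ran from -0.35 to 0.07 for DMSO and IC50 and from 0.06 to 0.56 for 1 µM.

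Spots marked as outliers were left out, spots of a probe averaged, log2 taken and each array shifted by its 75th percentile. Of 58118 probes with values, 22970 were tested, namely those well above background in every array of some group. The tested probe with the highest mean stood for a gene. Symbols came from RefSeq accessions matched to GRCh38.p14 gene names (35032 probes), and cross-hybridisation with near-identical sequences was not examined. A model of 6 group means over 24 arrays was fitted with limma 3.58.1 in R 4.3.3 and tested on simulated data, with two-sided p-values adjusted after Benjamini-Hochberg over all tested probes and a threshold of 0.05. A fold change above 2 was counted separately. The number of arrays limits the precision. The duration in the labels disagreed with the titles for the IC50 24 h and 1 µM 72 h groups, and the titles were used because only they give 6 groups of 4. The solvent content of 0.1% is that of the labels, and the methods state another.

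Groups shared replicate numbers in the labels, so it was checked whether same-numbered arrays deviated together from their group means. All 4 pairs correlated above 0.1 for 1 µM with DMSO at 24 h (r = 0.17 to 0.28) and with IC50 at 24 h (r = 0.20 to 0.31), but not in the other comparisons. Arrays of different numbers correlated as highly in places. DMSO 1 at 24 h gave r = 0.23 with 1 µM 2, against 0.17 with 1 µM 1. Likewise 1 µM 2 gave 0.26 with IC50 1, against 0.22 with IC50 2. The check therefore does not show that arrays were paired by number, and a pairing is not taken from the labels.

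The members, the lists of other pathway, mitotic and marker genes and the promoter words were chosen with earlier results of these data known, and no list was tested as a set. Values on every array are given for the 8 members with the highest and the 8 with the lowest log2 change among those called at 72 h, the 4 largest called at 24 h, the 4 largest called differences between durations, the 2 nearest 0 at 72 h and up to 4 called per IC50 comparison (there were 0), and for PCNA, chosen after its values were seen. Of the other pathway genes, the 4 highest and 4 lowest called at 72 h and CDKN1A, CDKN2A, CCND1 and CDC25A are named, apart from an item not reported here, and of the mitotic genes the 2 highest and 2 lowest called. Alternatives were other scalings, background corrections, filters, blocks and variance settings, the deposited table, the methods' t-test and each array left out in turn.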

Additional observations from a re-analysis of the deposited data

Results flagged for a closer look

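The change under 1 µM differed between the durations for 13 members (26%), by the test of that difference. Beside them stood 34.1% of all genes (16.4% positive and 17.7% negative). Among those named with all their arrays it was 0.91 for RFC3, 0.89 for POLE2, 0.88 for ORC6, 0.74 for RRM2, 0.71 for RFC4 and 0.46 for RFC2, on the log2 scale and all larger at 72 h.

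Single arrays stood apart from the other 3 of their group in 7 of 132 checks, a gap that chance gives in about 1 in 20 groups (5%). ORC6 was at 3.50 on the highest DMSO array at 24 h. RFC4 was at 6.02 on the lowest 1 µM array at 72 h, MCM10 at -0.21 on the lowest IC50 array at 24 h, and POLA1 at 3.75 on the lowest 1 µM array at 24 h. CCNE1 was at 3.99 on the highest IC50 array at 24 h, MCM5 at 5.06 on the highest 1 µM array at 24 h, and ASF1A at -1.74 on the highest DMSO array at 24 h.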

How the results depend on the processing

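No called value changed sign under an alternative. The medians of IC50 against DMSO, near 0 and with no test, did change sign: with 1 array left out they ran from -0.11 to 0.01 at 24 h and from -0.08 to 0.06 at 72 h, and on the 50th percentile scale they were 0.04 and 0.08. The medians of all genes in these comparisons shifted likewise on that scale, from -0.01 to 0.07 at 24 h and from -0.02 to 0.07 at 72 h. For single genes, 2281 of 2536 alternative values kept their direction and side of the threshold, 221 lost and 34 gained the call. At 72 h, 1 µM against DMSO called 41 members, beside 66.1% of all genes. Under the alternatives that kept the fold change free it called between 32 (50th percentile scale, beside 57.6% of all genes) and 43 (any probe of a gene). With 1 array left out it called 34 to 42. A fold change above 2 left 2, alone or with the methods' t-test. Percentages in brackets below are the shares of all genes called under the same setting. At 24 h the count of 17 (30.6%) was 6 on the 50th percentile scale (15.2%), 8 after normexp correction (25.1%) and 9 after quantile normalization (29.0%). It was 10 with slide as a random block (23.2%) and 11 by the methods' t-test with adjustment (20.4%). With a fold change above 2 by either test it was 1, namely ASF1A, lower and with the limit given above. With 1 array left out the count ran from 8 to 19. IC50 against DMSO called 0 members, and the methods' t-test without adjustment 2 at each duration. For 1 µM against IC50 at 24 h, the count of 24 (26.5%) was 5 on the 50th percentile scale (15.1%), 12 after normexp (21.9%) and 13 after quantile normalization (24.0%). It was 15 with only the arrays compared (19.7%), 15 with slide as a random block (20.1%) and 8 by the t-test with adjustment (16.4%). With a fold change above 2 by either test it was 1, again ASF1A, and with 1 array left out 10 to 27. The median of 0.28 was 0.12 on the 50th percentile scale. At 72 h the 39 became 3 with a fold change above 2 by either test and 37 to 44 with 1 array left out, and the median of 0.53 was 0.37 on the 50th percentile scale and 0.40 after normexp. That scale moved the median of all genes in those comparisons from 0.05 to -0.12 at 24 h and -0.11 at 72 h, and relative to it the members' medians were higher in each case. In DMSO, the 1 called member was 0 under a fold change above 2, the 50th percentile, normexp, no filter on dim probes, only the arrays compared, within slide 1, and the t-test with adjustment or with a fold change above 2, and the count was 2 with the strict filter or the replicate block, 5 by the t-test without adjustment and 0 to 2 with 1 array left out. For 1 µM at 72 h against 24 h, the 15 (43.2%) became 7 on the 50th percentile scale (31.3%) or with no filter (18.4%). They became 0 with a fold change above 2 by either test and 9 to 16 with 1 array left out. The 13 differences between durations (34.1%) became 8 on the 50th percentile scale (21.1%) and 7 with no filter (12.6%). They became 0 with a fold change above 2 and 11 to 15 with 1 array left out. The causes were not tested.

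The replicate block gave 18, 41, 23, 39, 17 and 14 calls where the fit without it gave 17 (1 µM against DMSO at 24 h), 41 (72 h), 24 (1 µM against IC50 at 24 h), 39 (72 h), 15 (1 µM, 72 h against 24 h) and 13 (difference between durations). Over all genes that block called 35.1%, 68.3%, 31.2%, 67.8%, 46.3% and 37.9%. With the replicate block within each duration the first 4 and the last were 25, 42, 33, 43 and 19. Beside them stood 37.2%, 69.1%, 33.1%, 68.6% and 39.3% of all genes. Both blocks assume a pairing that the check did not establish. They left the IC50 counts at 0 and changed no other count by over 1.5 times except the 1 in DMSO, which became 2. Members near the threshold are limited by 4 arrays a group, and ASF1A by its signal over background.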

Other observations

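Further genes of the pathway, chosen after their values were seen, were compared between 1 µM and DMSO at 72 h by limma. Among other origin factors TICRR, which with TOPBP1 brings CDC45 to origins, was higher by 1.25 in log2 change, MCM8 by 0.92, TRAIP by 0.90, ORC2 by 0.88 and TOPBP1 by 0.67, whereas ORC3 was at 0.04 (adjusted p = 0.58) and RECQL4 at 0.08 (adjusted p = 0.64). Among fork protection genes, TIPIN was higher by 0.89 and FANCD2 by 0.78, whereas TIMELESS, the partner of TIPIN, was at 0.10 (adjusted p = 0.34) and ATR, the kinase upstream of CHEK1, at -0.10 (adjusted p = 0.28). POLE3, a histone-fold subunit of polymerase epsilon, was higher by 0.96, while its partner POLE4 was at 0.15 and did not pass the test (adjusted p = 0.0504). Of the E2F family outside the members, E2F4 was higher by 0.64 and E2F7 by 1.47, and E2F3 (0.27), E2F6 (-0.06) and E2F8 (0.08) did not pass the test (adjusted p = 0.068, 0.56 and 0.63).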
